A study of Mus musculus with 12 samples.

Results

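Cathepsins are the proteases of the lysosome and its neighbouring compartments. The 10 members described here were matched by mouse symbol to 1 Ensembl row each in the tables of counts and TPM (transcript abundance scaled for gene length and library size), which hold 56953 genes. By the residue that cuts the peptide bond they fall into 7 cysteine proteases (Ctsb, ENSMUSG00000021939; Ctsc, ENSMUSG00000030560; Ctsf, ENSMUSG00000083282; Ctsh, ENSMUSG00000032359; Ctsl, ENSMUSG00000021477; Ctss, ENSMUSG00000038642; Ctsz, ENSMUSG00000016256), 2 aspartic proteases (Ctsd, ENSMUSG00000007891; Ctse, ENSMUSG00000004552) and 1 serine carboxypeptidase (Ctsa, ENSMUSG00000017760). They are made as inactive proforms, sorted to acidic endosomes and lysosomes largely through mannose 6-phosphate receptors, and activated there by removal of the propeptide. In macrophages they degrade engulfed cells, including the expelled nuclei and spent red cells cleared in bone marrow, and they trim antigens and the invariant chain for presentation to T cells. Cystatins and some serpins restrain them, and the transcription factors of the Tfeb and Tfe3 family drive many lysosomal genes together.

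RNA was measured in 4 populations sorted from the bone marrow of 8-week-old female C57BL/6J mice, with 3 libraries each. Macrophages with high F4/80 were split by a lineage reporter: per the study, mice carried Rank cre/+;R26.eYFP fl/+, in which Cre made from the Rank locus switches on eYFP in embryonic macrophages and is not made in adult blood stem or progenitor cells. The eYFP+ macrophages are thus taken as embryonic in origin and the eYFP- macrophages as adult in origin, although a cell whose reporter did not recombine also lands among the eYFP- cells. The other populations were Ly6Chi monocytes, the classical type, and Ly6Clo monocytes, the patrolling type, and the labels do not give their genotype. RNA from small numbers of sorted cells was amplified as full-length cDNA before sequencing. Whether libraries of a group came from separate mice is not stated, so p-values measure the spread between these samples, which may be technical.

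The libraries held 26390927 to 48618187 counted read pairs. Macrophage markers (7 of 7 matched, Vcam1, Spic and C1qa among them) summed to between 21261 and 28952 TPM in the 6 macrophage libraries and to between 273 and 1347 TPM in the 6 monocyte libraries. Monocyte markers (6 of 6) summed to between 48.8 and 121 TPM in macrophages, 7218 to 8327 TPM in Ly6Chi and 706 to 1435 TPM in Ly6Clo monocytes, with Ly6c2 at a mean of 6246 TPM in Ly6Chi and 55.2 TPM in Ly6Clo monocytes. These lists separate macrophages from monocytes and Ly6Chi from Ly6Clo cells, and they do not check the eYFP sort. Markers listed for other cells were also detected. Erythroid markers (9 matched of 10) summed to 9005 to 14494 TPM in eYFP+ and 22412 to 35227 TPM in eYFP- macrophages, against 359 to 1410 TPM in monocytes, and markers of neutrophils and their precursors (10 of 10) to 15726 to 23922 TPM in Ly6Chi and 6729 to 15918 TPM in Ly6Clo monocytes. The number of genes with counts ran from 16434 in Ly6Clo replicate 2 (22254 and 24769 in the other Ly6Clo libraries) to 27634, and replicate 1 had the fewest in both macrophage populations, 22496 against 26858 and 27424 in eYFP+ and 21330 against 23858 and 26432 in eYFP- cells.

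Cathepsins made up a large part of the macrophage transcript pool. The 10 genes summed to 2.93, 2.41 and 2.56% of all TPM in eYFP+ replicates 1, 2 and 3 and to 2.38, 2.13 and 2.13% in the eYFP- replicates, against 0.879, 0.855 and 0.945% in Ly6Chi and 0.876, 1.03 and 0.978% in Ly6Clo monocytes. The 6 macrophage values all lay above the 6 monocyte values, and the lowest eYFP+ value lay above the highest eYFP- value. TPM divides each count by gene length, so levels can be compared between genes on this scale.

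**Figure D1:**
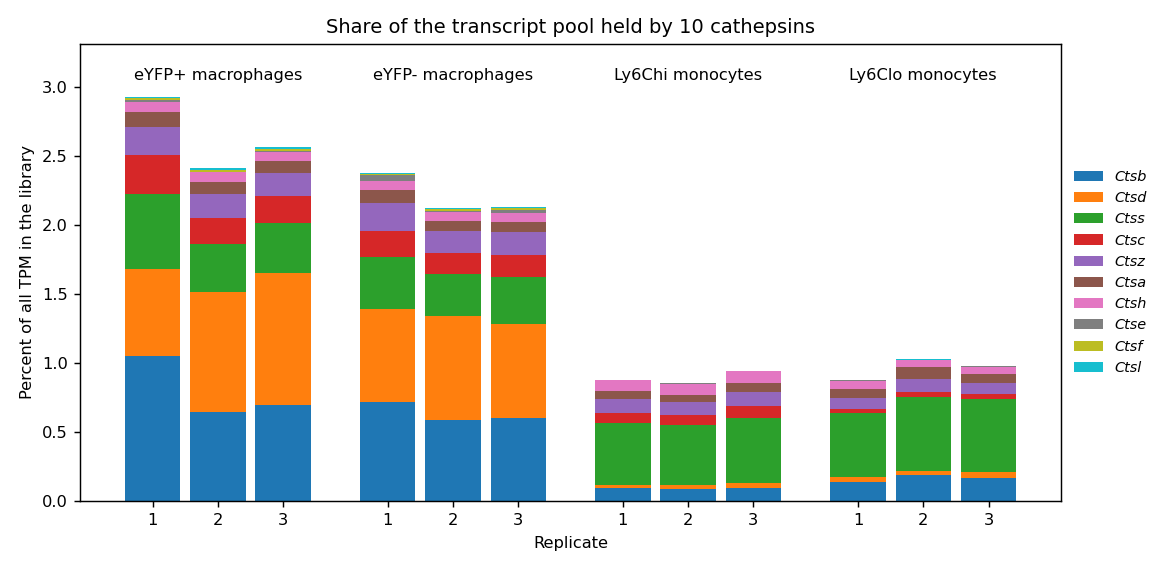
Stacked bars give the percent of all TPM held by the 10 cathepsins in each of the 12 libraries, with replicate number on the x axis and 1 colour per gene. The macrophage bars reach 2.13 to 2.93% and are mostly Ctsb, Ctsd and Ctss, whereas the monocyte bars reach 0.855 to 1.03% and are mostly Ctss.

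The make-up of the pool differed as well. In macrophages Ctsb (7968 ± 2235 TPM in eYFP+ and 6326 ± 703 TPM in eYFP-, SD, n = 3), an endo- and exopeptidase, and Ctsd (8190 ± 1706 and 7071 ± 394 TPM), the main aspartic endopeptidase of the lysosome, led the list. Their ranks among all genes ran from 8 to 20 in the 6 macrophage libraries. Ctss, which cuts the invariant chain in antigen-presenting cells, came next there (4185 ± 1099 and 3404 ± 340 TPM). In monocytes Ctss alone led, with 4513 ± 202 TPM in Ly6Chi and 5091 ± 445 TPM in Ly6Clo cells, and it held 50.04 to 54.02% of the cathepsin TPM in the 6 libraries. The ratio of Ctsd to Ctss was 1.15 to 2.62 in the macrophage libraries and 0.0435 to 0.0854 in the monocyte libraries. That of Ctsb to Ctss was steadier between replicates, at 1.85 to 1.93 in eYFP+, 1.77 to 1.90 in eYFP-, 0.196 to 0.203 in Ly6Chi and 0.298 to 0.350 in Ly6Clo libraries.

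Further down the order, Ctsc (an activator of granule serine proteases), Ctsz (a carboxypeptidase), Ctsa and Ctsh (an aminopeptidase) had group means of 341 to 2219 TPM in every population. Neighbours in that order were not all separate. Ctsb and Ctsd lay within 1 SD of each other in eYFP+ cells, and so did Ctsc (1668 ± 192 TPM) and Ctsz (1749 ± 240 TPM) in eYFP- cells, although Ctsz was the higher of these in all 3 eYFP- libraries. In eYFP+ cells Ctsc (2219 ± 513 TPM) was above Ctsz (1817 ± 215 TPM) in all 3 libraries. Ctsa (939 ± 117 and 793 ± 114 TPM) stood above Ctsh (726 ± 42.9 and 661 ± 34.05 TPM) by more than 1 SD of either. Ctse, Ctsf and Ctsl were the scarce members. In monocytes Ctsf averaged 3.81 ± 1.06 TPM in Ly6Chi and 5.65 ± 2.86 TPM in Ly6Clo cells, and Ctsl 13.6 ± 0.808 and 10.2 ± 5.63 TPM.

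**Figure D2:**
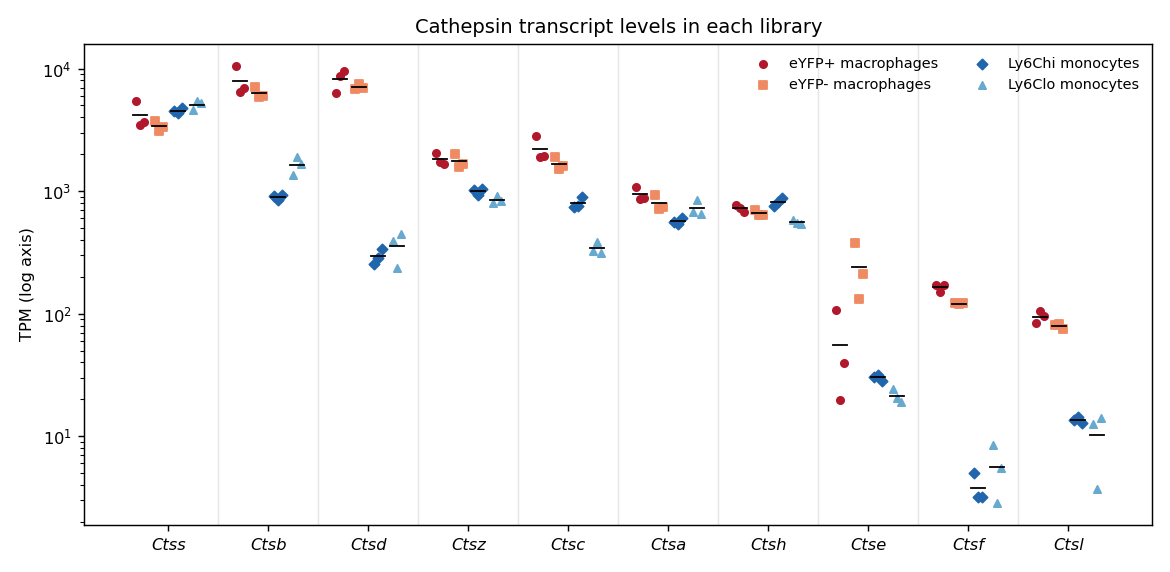
Each point is the TPM of a cathepsin in a library (log axis), coloured by population, and each black line is the mean of 3 libraries. Ctsb, Ctsd, Ctsf and Ctsl stand far higher in the 6 macrophage libraries than in the 6 monocyte libraries, while the populations lie close together for Ctsa, Ctsh and Ctss.

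The 250 bases before the transcription start are shown for 4 members whose window holds the hexamer CACGTG, and for Ctss, the most abundant member in monocytes, whose window lacks it. CACGTG reads the same on both strands and is the core of the element that Tfeb, Tfe3 and Mitf are known to bind at lysosomal genes. The sequences are from RefSeq on build GRCm38.p6, are written 5' to 3' on the gene's strand, and carry CACGTG in capitals.
Ctsd, chr7:142387828-142388077, - strand: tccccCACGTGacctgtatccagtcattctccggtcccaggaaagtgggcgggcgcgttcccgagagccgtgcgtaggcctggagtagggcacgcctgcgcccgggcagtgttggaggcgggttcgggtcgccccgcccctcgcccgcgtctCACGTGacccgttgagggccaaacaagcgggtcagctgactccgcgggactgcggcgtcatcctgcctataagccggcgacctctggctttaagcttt
Ctsf, chr19:4854915-4855164, + strand: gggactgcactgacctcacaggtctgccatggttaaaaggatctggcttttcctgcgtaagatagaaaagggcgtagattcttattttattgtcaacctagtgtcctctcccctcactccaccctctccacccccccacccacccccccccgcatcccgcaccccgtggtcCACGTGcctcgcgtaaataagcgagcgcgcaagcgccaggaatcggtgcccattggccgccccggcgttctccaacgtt
Ctsl, chr13:64370521-64370770, - strand: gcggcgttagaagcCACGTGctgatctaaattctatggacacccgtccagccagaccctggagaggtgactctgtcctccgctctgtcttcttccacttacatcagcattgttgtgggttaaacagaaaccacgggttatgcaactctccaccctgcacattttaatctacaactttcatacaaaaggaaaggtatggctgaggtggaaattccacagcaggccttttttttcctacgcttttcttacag
Ctsa, chr2:164833523-164833772, + strand: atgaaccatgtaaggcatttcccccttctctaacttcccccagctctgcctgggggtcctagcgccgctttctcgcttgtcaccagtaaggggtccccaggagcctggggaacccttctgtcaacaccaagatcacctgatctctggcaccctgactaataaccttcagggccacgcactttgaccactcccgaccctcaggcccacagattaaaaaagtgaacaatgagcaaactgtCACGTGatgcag
Ctss, chr3:95526536-95526785, + strand: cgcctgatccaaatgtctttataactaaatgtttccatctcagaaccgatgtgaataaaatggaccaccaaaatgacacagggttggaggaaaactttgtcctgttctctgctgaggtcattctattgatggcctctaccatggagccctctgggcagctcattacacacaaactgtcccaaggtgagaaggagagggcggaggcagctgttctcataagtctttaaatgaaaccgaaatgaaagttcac
RefSeq windows of 300 bases (250 before to 50 after the start) were at hand for 7 of the 10 members (Ctsa, Ctsc, Ctsd, Ctsf, Ctsl, Ctss and Ctsz), Ctsa with 2 windows. CACGTG lay in 4 of these 8 windows, as against 7.15% of 32851 mouse promoter windows of the same length. By gene these were 4 of the 7, Ctsd, Ctsf, Ctsl and Ctsa, the last in 1 of its 2 windows. In Ctsd it began at bases -245 and -98, in Ctsf at -79, in Ctsl at -236, and in the second Ctsa window at -12 and at 5, counted from the start site. The longer palindrome TCACGTGA, which contains the hexamer, was present in 2 of the 8 windows (Ctsa and Ctsd) and in 0.974% of all windows. A match is a description of the letters only. In the comparison that follows, 3 of the 4 genes with the hexamer were called higher in macrophages (not Ctsa) and 2 of the 3 without it (Ctsc and Ctsz, not Ctss). Whether the hexamer goes with the levels was not tested.

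The comparison of macrophages with monocytes asks how the resident phagocytes of the marrow differ from the monocytes sorted from the same tissue. Of the 10 cathepsins, 7 were higher in macrophages at an adjusted p under 0.05 (DESeq2 Wald test, Benjamini-Hochberg over all genes) and none was lower, where 35.4% of all genes tested were called in either direction, 20.3% being higher and 15% lower. Among genes with a mean of at least 500 normalized counts, a level that all 10 members passed, 44.9% were called and 21.6% were higher. The median log2 fold change of the members was 1.98 and that of all genes tested was 0.08. The 6 macrophage libraries lay above the 6 monocyte libraries without overlap for Ctsb, Ctsc, Ctsd, Ctsf, Ctsl and Ctsz, and 10.7% of all genes showed that (17.7% in either direction). In bulk RNA from sorted cells, fewer cells of a type and less RNA per cell cannot be told apart. Values below are normalized counts, meaning counts divided by the library's size factor.

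**Figure D3:**
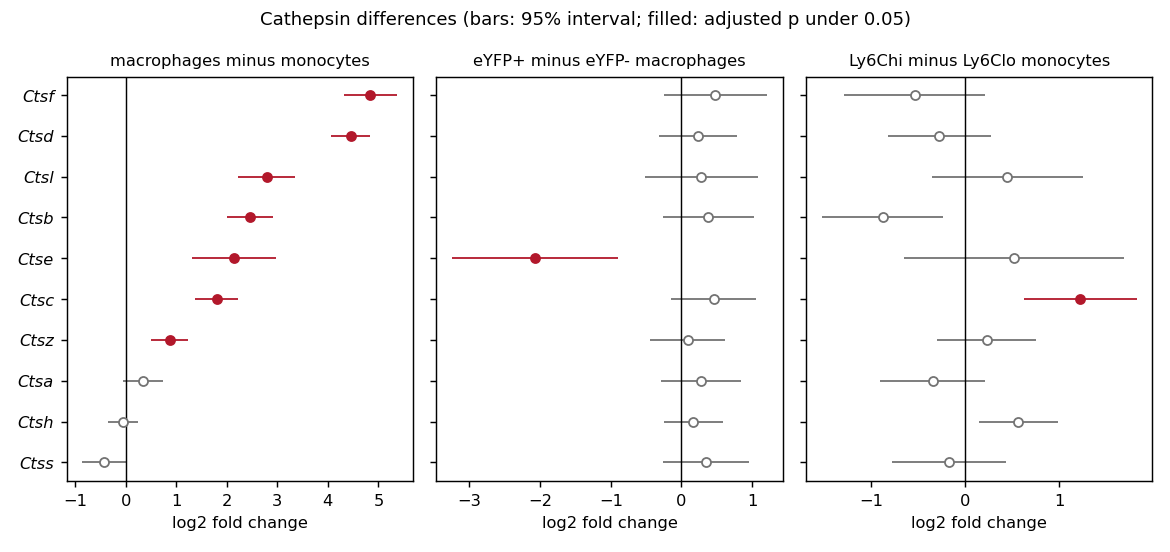
Points give the log2 fold change of each cathepsin in 3 comparisons, bars the 95% interval, and filled points an adjusted p under 0.05. Between macrophages and monocytes 7 of the 10 genes are filled and lie above 0, whereas a single gene is filled in each comparison within a cell type, Ctse in macrophages (below 0) and Ctsc in monocytes (above 0).

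Among the cysteine proteases, Ctsf had the largest difference of the family. It was counted 7413, 5610 and 6154 times in eYFP+ replicates 1, 2 and 3 and 5031, 4083 and 4647 times in the eYFP- replicates. In monocytes it was counted 207, 130 and 132 times in Ly6Chi and 330, 123 and 228 times in Ly6Clo cells. Every macrophage value was over 10 times every monocyte value. The log2 fold change was 4.84 ± 0.27 (SE), or 28.7-fold, with an adjusted p of 3.92e-71. Ctsl, a broad endopeptidase, stood at 11209, 12226 and 10669 normalized counts in eYFP+ and at 10383, 8825 and 8891 in eYFP- macrophages. Its monocyte values were 1737, 1842 and 1642 in Ly6Chi and 1506, 502 and 1825 in Ly6Clo cells, the 502 being Ly6Clo replicate 2. The ranges did not overlap, and the fold change was 6.92 (log2 2.79 ± 0.29, adjusted p = 1.67e-20). Without Ly6Clo replicate 2 the log2 fold change was 2.55 for Ctsl and 4.64 for Ctsf.

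Ctsb was the most abundant cysteine cathepsin of macrophages, with 1080558, 577219 and 600334 normalized counts in eYFP+ and 708374, 481671 and 543857 in eYFP- replicates. Ly6Chi monocytes had 89697, 83235 and 91344 and Ly6Clo monocytes 126182, 195826 and 164240.5. All macrophage values lay well above all monocyte values, and the difference of log2 2.46 ± 0.23 amounted to 5.52-fold (adjusted p = 1.37e-24). Replicate 1 of eYFP+ was 1.84 times the mean of the other eYFP+ libraries, and without it the log2 fold change of Ctsb was 2.29. Ctsc was 3.48-fold higher in macrophages (log2 1.80 ± 0.22, adjusted p = 2.55e-15), from 84298 to 195795 normalized counts there and from 20476 to 59810 in monocytes. Ctsz, at 38916 to 64228 in macrophages and 22509 to 31007 in monocytes, was 1.83-fold higher (log2 0.87 ± 0.19, adjusted p = 3.39e-05). Of the 10 members, Ctsz has the longest transcript richest in G and C, at 57.3%. Under a correction for GC content per library the log2 difference of Ctsz was 0.36 and was no longer called (adjusted p = 0.497). The correction took Ctsz in Ly6Clo replicate 2 from 28576 to 82577, 3.61 times the mean of the other Ly6Clo libraries, while the other 5 monocyte values were 21183 to 32189. With the correction but without that library, an alternative chosen after seeing the data, the log2 difference was 0.80 (adjusted p = 0.00745). With all libraries that correction lowered the median of all genes in this comparison by 0.26, and took the share of called genes that were higher from 57.5 to 43.4% (47.5% without Ly6Clo replicate 2).

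Ctss and Ctsh were not higher in macrophages. Ctss was counted 159781, 89039 and 89729 times in eYFP+ and 106702, 72297 and 87542 times in eYFP- macrophages, against 126055, 121304 and 133018 times in Ly6Chi and 120897, 159994 and 149002 times in Ly6Clo monocytes. Without eYFP+ replicate 1, which had 1.79 times the mean of the other eYFP+ libraries, all macrophage values lay below all monocyte values. The log2 fold change was -0.43 ± 0.22 with all libraries (95% interval -0.86 to -0.00065, adjusted p = 0.118) and -0.59 without that library (adjusted p = 0.00348). It was also called lower after GC correction with all libraries (-0.64, adjusted p = 0.0271) and without Ly6Clo replicate 2 (-0.56, adjusted p = 0.0312). Ctsh ran from 17994 to 26803 normalized counts in macrophages and from 18133 to 29359 in monocytes, with a log2 fold change of -0.05 and a 95% interval of -0.35 to 0.24 (adjusted p = 0.83).

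Of the aspartic proteases, Ctsd went from 288841, 353352 and 368900 normalized counts in eYFP+ and 303048, 276777 and 281146 in eYFP- macrophages down to 11303, 12594 and 14917 in Ly6Chi and 16109, 10925 and 19974 in Ly6Clo monocytes. The groups were far apart, and the replicates of the macrophage populations were close. Macrophages were 21.8-fold higher (log2 4.45 ± 0.20, adjusted p = 3.43e-109), and 24 of 24 alternatives in processing called Ctsd with a log2 value between 4.06 and 4.57. Ctse, an endosomal enzyme rather than a lysosomal one, was called 4.44-fold higher in macrophages (log2 2.15 ± 0.42, adjusted p = 2.95e-06), yet its ranges overlapped, from 801 to 16881 normalized counts in macrophages and from 835 to 1393 in monocytes. The lowest were eYFP+ replicate 2 and Ly6Clo replicate 3.

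The serine carboxypeptidase Ctsa, which also protects beta-galactosidase (Glb1) and the neuraminidase Neu1 in a complex, had 45076 to 84700.1 normalized counts in macrophages and 40799 to 67536 in monocytes. Its log2 fold change was 0.34 with a 95% interval of -0.06 to 0.73 (adjusted p = 0.199), and the ranges overlapped.

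Taken pair by pair, each macrophage population was tested against each monocyte population in the same fit. Relative to Ly6Chi cells, 6 members were higher in eYFP+ macrophages (13.9% of all genes were higher) and 7 in eYFP- macrophages (16.3%). Relative to Ly6Clo cells the counts were 6 (15.7%) and 7 (15.4%). Ctsb, Ctsc, Ctsd, Ctsf, Ctsl and Ctsz made up the 6 in each case, and Ctse was the seventh for eYFP- macrophages. No member was called lower. Ctsc had its smallest gap between eYFP- macrophages and Ly6Chi monocytes (1.95-fold, adjusted p = 0.0092) and its largest between eYFP+ macrophages and Ly6Clo monocytes (6.22-fold). Ctse was 10.9-fold higher in eYFP- macrophages than in Ly6Clo monocytes, while eYFP+ macrophages exceeded Ly6Chi monocytes by 1.81-fold with a 95% log2 interval of -0.32 to 2.03 (adjusted p = 0.345). These 4 comparisons share their libraries with each other and are not independent.

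The comparison of eYFP+ with eYFP- macrophages asks whether origin leaves a trace in macrophages of the same surface phenotype. A single member was called, Ctse, which was lower in eYFP+ macrophages, where 2.04% of all genes tested were called, 1.88% being lower and 0.153% higher. The other 9 members all had a log2 fold change above 0, between 0.09 for Ctsz and 0.48 for Ctsf, and none of those passed the test. Of all genes tested, 53.6% lay above 0, and the median log2 fold change was 0.28 for the members and 0.05 for all genes. Only Ctsf and Ctsl had eYFP+ libraries that all lay above the eYFP- libraries, as 6.74% of all genes did, with 15.2% separated in either direction.

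Ctsf spanned 5610 to 7413 normalized counts in eYFP+ and 4083 to 5031 in eYFP- macrophages, and Ctsl 10669 to 12226 and 8825 to 10383. Their log2 fold changes were 0.48 (95% interval -0.25 to 1.21, adjusted p = 0.909) and 0.28 (-0.52 to 1.08, adjusted p = 1). For the most abundant members the intervals were -0.26 to 1.03 for Ctsb and -0.32 to 0.78 for Ctsd. Set side by side by replicate number, eYFP+ lay above eYFP- in all 3 numbers for 7 members (Ctsa, Ctsb, Ctsc, Ctsf, Ctsh, Ctsl and Ctss), as for 16.5% of all genes, and below in all 3 for Ctse, as for 16% of all genes. The members of a library share its depth and composition and are not independent, and the sources do not say that a number joins libraries. With the number as a block in DESeq2 the 9 members other than Ctse were not called either (adjusted p = 1), with log2 fold changes of 0.09 to 0.47. Replicate 1 was the highest library of both macrophage populations for Ctsa, Ctsb, Ctsc, Ctse, Ctsf, Ctsh, Ctss and Ctsz. Without eYFP+ replicate 1 the log2 fold change fell to 0.03 for Ctsb, 0.01 for Ctss and 0.15 for Ctsc, was -0.10 for Ctsz, and was 0.33 for Ctsd and 0.36 for Ctsf, against 0.23 and 0.48 with all libraries.

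Ctse was counted 4907, 801 and 1528 times in eYFP+ replicates 1, 2 and 3 and 16881, 4882 and 8649 times in the eYFP- replicates. On this scale the groups touched, since eYFP+ replicate 1 exceeded eYFP- replicate 2, and in TPM they did not (19.8 to 107 against 133 to 379). The log2 fold change was -2.07 ± 0.60 (adjusted p = 0.0309), so that eYFP- macrophages had 4.20 times the eYFP+ level. The call was kept in 13 of 25 alternatives in processing, in which the log2 value ran from -3.12 to -1.48 and the adjusted p from 2.41e-07 to 0.47. It was lost in edgeR's quasi-likelihood test (adjusted p = 0.243), which called 0.334% of all genes, and without eYFP- replicate 1 (0.47), eYFP- replicate 3 (0.109), eYFP+ replicate 2 (0.154) or eYFP+ replicate 3 (0.223), and without any 1 of the Ly6Chi libraries (0.0509 to 0.0535). Without eYFP+ replicate 1 the adjusted p was 2.41e-07.

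Erythroid markers moved with Ctse between the macrophage libraries. The 9 matched markers of 10 summed to 14494, 9005 and 10671 TPM in eYFP+ replicates 1, 2 and 3 and to 35227, 22412 and 31728 TPM in the eYFP- replicates, and none of the 9 was listed at 0 in any macrophage library. Replicate 1 was the highest and replicate 2 the lowest in each population, as for Ctse. In normalized counts Ctsb, Ctsf and Ctss had that order in both populations too, so it was not particular to Ctse. All 9 markers had a log2 fold change below 0, from -2.63 (Klf1, an erythroid transcription factor, adjusted p = 0.00187) to -0.21 (Epor, the erythropoietin receptor), and besides Klf1 the anion exchanger of red cells, Slc4a1, was called lower (-1.72, adjusted p = 0.0106). Of the genes searched, those most similar to Ctse over the 12 libraries were Mgst3, Orc6 and Urod (Pearson r 0.96 to 0.97), the last an enzyme of heme synthesis. The part of erythroid RNA in the Ctse difference was not tested.

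**Figure D4:**
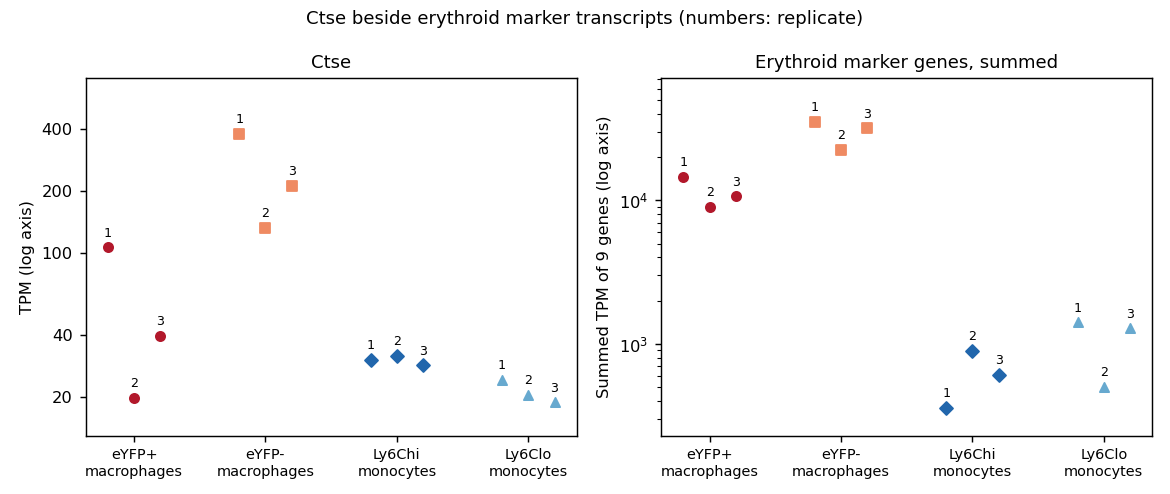
Points give Ctse (left) and the sum of 9 erythroid marker genes (right) in TPM on log axes for each library, labelled with its replicate number. In both macrophage populations replicate 1 is highest and replicate 2 lowest in both panels, and the erythroid sum is 9005 to 14494 TPM in eYFP+ and 22412 to 35227 TPM in eYFP- libraries. Ctsb and Ctss, which are not drawn here, have the same order of replicates in TPM.

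Between Ly6Chi and Ly6Clo monocytes 1 of the 10 members was called, Ctsc. That share is near the 8.62% of all genes tested that were called, 3.66% being higher and 4.97% lower in Ly6Chi cells. Ctsc was counted 49934, 49930 and 59810 times in Ly6Chi and 20476, 26911 and 21087 times in Ly6Clo replicates 1, 2 and 3. All Ly6Chi values lay above all Ly6Clo values, by 2.33-fold (log2 1.22 ± 0.31, adjusted p = 0.00202), and 25 of 25 alternatives called it. Ctsb had the opposite order, with 83235 to 91344 normalized counts in Ly6Chi and 126182 to 195826 in Ly6Clo cells. Its log2 fold change of -0.88 ± 0.33 did not pass the test (adjusted p = 0.0742), but did in 6 of 25 alternatives, leaving out Ly6Clo replicate 1 (-1.03, adjusted p = 0.0472) or eYFP+ replicate 1 (-0.88, adjusted p = 0.0126) among them. Ctsh stood at 25544 to 29359 in Ly6Chi and 18133 to 19403 in Ly6Clo cells (log2 0.56 ± 0.21, adjusted p = 0.0835) and was called in 4 of 25 alternatives. Markers of neutrophils and their precursors (10 of 10) summed to 15726 to 23922 TPM in Ly6Chi and 6729 to 15918 TPM in Ly6Clo libraries. S100a8 and S100a9, which monocytes are known to express too, averaged 9469.99 and 3932 TPM in Ly6Chi and 5069 and 1852 TPM in Ly6Clo cells. Of the granule genes, Ngp and Camp averaged 2684 and 2555 TPM in Ly6Chi and 1967 and 1096.5 TPM in Ly6Clo cells, and Elane, Mpo and Prtn3 600.1, 322 and 176 TPM against 1.44, 6.42 and 4.01 TPM. Ltf and Retnlg had the other order, with 249 and 441 TPM for Ltf and 9.99 and 54.4 TPM for Retnlg. Dendritic cell markers (7 of 7) summed to 109.8 to 123 TPM and 613 to 2843 TPM, and each of the 7 had its higher mean in Ly6Clo cells. Cd209a averaged 89.8 and 1311 TPM, Ccr7 0 and 24.7 TPM, Flt3 23.2 and 30.6 TPM and Zbtb46 0.678 and 5.61 TPM. Their part in these differences was not tested.

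The groups did not overlap for 5 members, Ctsc, Ctse and Ctsh being above and Ctsa and Ctsb below in Ly6Chi cells, as they did not for 28.1% of all genes (16.2% above and 11.9% below). For Ctse those values were 1259 to 1393 and 835 to 1001 normalized counts, with a log2 fold change of 0.52 (95% interval -0.66 to 1.69, adjusted p = 0.69). Ctsd, Ctsf and Ctsl overlapped, and Ly6Clo replicate 2 held the lowest value of each. Without that library the log2 fold change of Ctsf was -0.83 (adjusted p = 0.0614), against -0.54 with it, and that of Ctsl was 0.06, against 0.45. The median over the 10 members was 0.02, as it was for all genes.

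Of 13 other cathepsin genes, 4 reached a mean of 1 TPM in some population, Ctsk, Ctso, Ctsg and Ctsw, and the other 9 stayed at or below 0.115 TPM in every group. Ctsk, the collagen-cutting enzyme best known from osteoclasts, was counted 2803, 1710 and 4263 times in Ly6Clo monocytes and 18, 13 and 6 times in Ly6Chi monocytes, before normalization. The difference was 212-fold (log2 -7.73 ± 0.52 for Ly6Chi minus Ly6Clo, adjusted p = 8.15e-47). In eYFP+ macrophages Ctsk had 64, 34 and 111 counts and in eYFP- macrophages 12, 27 and 14, which gave a log2 fold change of 2.07 (adjusted p = 0.0052) at a mean of 2.04 and 0.506 TPM, and which edgeR did not call (adjusted p = 0.112). That call was also lost in both limma fits (0.203 and 0.121), in edgeR with a replicate block (0.263), with only the libraries compared (0.0598), and without eYFP- replicate 1 (0.0615), eYFP- replicate 3 (0.0749) or eYFP+ replicate 3 (0.0995). Against monocytes as a whole, macrophages had 7.004-fold less Ctsk (log2 -2.81 ± 0.36, adjusted p = 2.26e-13), but their values overlapped with those of Ly6Chi monocytes. Ctso was 2.14-fold higher in macrophages than in monocytes (adjusted p = 1.51e-06), at 69.3 to 116 TPM against 27.4 to 48.4 TPM.

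Ctsg and Ctsw are cathepsins of other blood cells, the first a granule protease of neutrophil precursors and the second of cytotoxic lymphocytes. Ctsg had 2.66, 10.1 and 0.407 TPM in eYFP+ and 22.6, 82.4 and 87.5 TPM in eYFP- macrophages and was called lower in eYFP+ cells (log2 -3.81 ± 1.07, adjusted p = 0.0237, and 0.334 in edgeR). Without any 1 of eYFP+ replicates 1 and 3, eYFP- replicates 2 and 3 and Ly6Clo replicate 1 the adjusted p was 0.0848 to 0.401, and it was 0.214 in limma on log2(TPM + 0.1) and 0.603 in edgeR with a replicate block. Among monocytes Ctsg was 15.2-fold higher in Ly6Chi (29.3 to 50.3 TPM) than in Ly6Clo cells (0 to 4.72 TPM, adjusted p = 0.00558), which 18 of 25 alternatives called and edgeR did not (adjusted p = 0.105). Markers of neutrophils and their precursors, a list of 10 that includes Ctsg, summed to 123 to 211 TPM in eYFP+ and 263 to 2704 TPM in eYFP- libraries, with Elane listed at 0 in 1 eYFP+ library and Ltf in 1 eYFP- library. Ctsw was at 2.18 to 6.21 TPM in eYFP+ and 6.11 to 23.2 TPM in eYFP- macrophages and did not pass the test (adjusted p = 0.699). It was 3.45-fold higher in macrophages than in monocytes (0 to 5.54 TPM, adjusted p = 0.0375), with overlapping values, and 12 of 24 alternatives called that (adjusted p from 0.00329 to 0.175, 0.105 in edgeR). The 9 markers of T and NK cells, Ctsw included, summed to 12.03 to 28.01 TPM in eYFP+ and 69.46 to 139 TPM in eYFP- libraries, and the NK members had higher means in eYFP- cells, Nkg7 at 5.50 and 57.7 TPM, Gzma at 3.59 and 20.1 TPM, Ncr1 at 2.32 and 8.85 TPM and Klrb1c at 1.26 and 5.36 TPM in eYFP+ and eYFP- cells. Of the T cell genes, Trbc2 averaged 3.05 TPM in eYFP+ and 5.05 TPM in eYFP- cells. Cd3g averaged 0.402 and 0.890 TPM and Cd3d 0.500 and 0.635 TPM. Cd3e had the other order, at 0.360 and 0.168 TPM, and was at or below 0.585 TPM in every macrophage library. The part of the listed markers in the Ctsg and Ctsw differences was not tested.

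**Figure D5:**
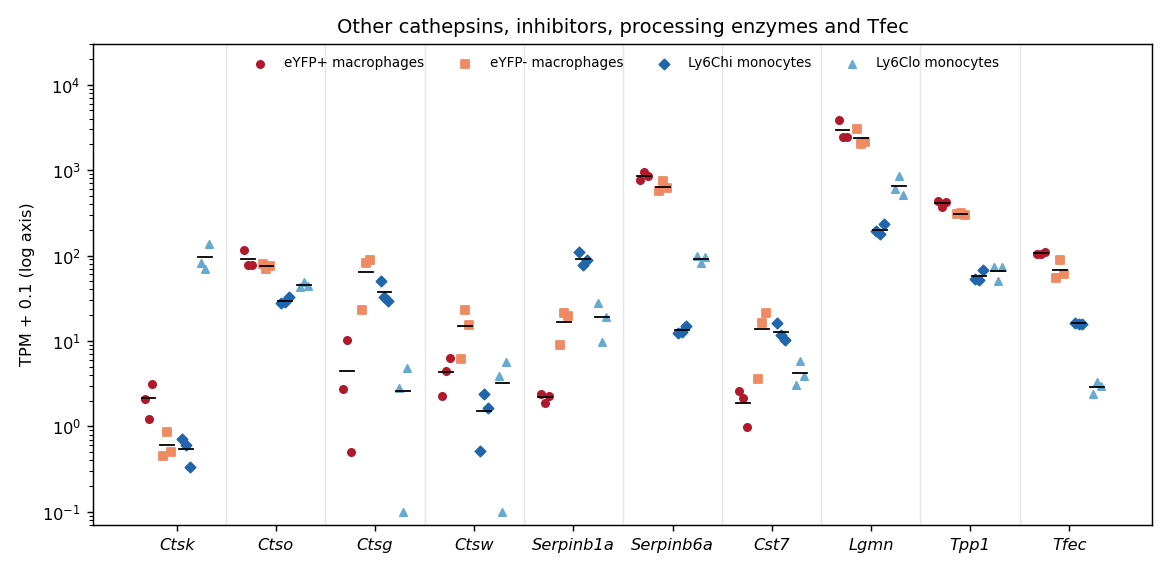
Points give TPM plus 0.1 in each library on a log axis for 4 other cathepsins, 3 inhibitors, the processing enzymes Lgmn and Tpp1 and the transcription factor Tfec, and lines mark group means. Ctsk stands at 69.4 to 138 TPM in Ly6Clo monocytes and below 3 TPM elsewhere, and Serpinb6a, Lgmn, Tpp1 and Tfec stand highest in macrophages.

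Of 16 inhibitors, 14 were matched and 8 were abundant enough to be tested. Between the macrophage populations 2 were lower in eYFP+ cells and none was higher, where 1.88% of all genes were lower and 0.153% higher (median log2 fold change of the 8 0.21, of all genes 0.05). Serpinb1a, an inhibitor of neutrophil elastase and Ctsg, had 2.31, 1.78 and 2.17 TPM in eYFP+ and 8.89, 21.2 and 19.4 TPM in eYFP- macrophages (log2 -2.91 ± 0.42, adjusted p = 7.9e-09), and this was called in each of the alternatives run. Cst7, the cystatin that restrains Ctsc and Ctsl, had 2.46, 2.04 and 0.868 TPM in eYFP+ and 3.49, 16.2 and 20.9 TPM in eYFP- macrophages (log2 -2.82 ± 0.62, adjusted p = 0.00104). The Cst7 call was lost in edgeR (adjusted p = 0.108, and 0.272 with a replicate block), in limma (0.0576 with a pseudocount of 1 and 0.0775 with 0.1) and without eYFP- replicate 3 (0.0576). Eosinophil, basophil and mast cell markers (6 of 6) also differed, at 6.07 to 14.8 TPM summed in eYFP+ and 255 to 1327 TPM in eYFP- libraries, and their part in the Cst7 and Serpinb1a differences was not tested. Against monocytes, 3 inhibitors were higher in macrophages and 2 lower, beside the same 20.3 and 15% of all genes (median log2 fold change of the 8 -0.39, of all genes 0.08). Serpinb6a, an inhibitor of Ctsg, rose to 566 to 958 TPM in macrophages from 12.4 to 98.3 TPM in monocytes (log2 4.30 ± 0.13, adjusted p = 8.69e-236), and Serpinb1a was lower (log2 -2.92, adjusted p = 1.56e-21). Between the monocyte populations 2 inhibitors were higher in Ly6Chi cells (3.66% of all genes), led by Serpinb1a (log2 2.32, adjusted p = 1.65e-06), and 3 were lower (4.97%), led by Serpinb6a (log2 -2.79, adjusted p = 7.17e-47).

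The 11 genes of proenzyme processing and delivery were all tested. Macrophages had 7 of them higher and 1 lower than monocytes, where 20.3% of all genes were higher and 15% lower (median log2 fold change 0.78, of all genes 0.08). Tpp1, a lysosomal peptidase, stood at 297 to 439 TPM in macrophages and 50.9 to 74.1 TPM in monocytes (log2 2.43 ± 0.18, adjusted p = 2.77e-41), and Lgmn, the asparaginyl endopeptidase that trims several cathepsins, at 2023 to 3893 TPM and 177 to 861 TPM. The gene that was lower was Sorl1, a sorting receptor (0.789 to 2.45 TPM in macrophages and 5.19 to 20.8 TPM in monocytes, log2 -2.99, adjusted p = 1.44e-24). Between the monocyte populations Lgmn was lower in Ly6Chi cells (log2 -1.73 ± 0.38, adjusted p = 0.000269) and Sorl1 was higher (1.44, adjusted p = 0.00635). None of the 11 was called between the macrophage populations (2.04% of all genes were), and 9 had a log2 fold change above 0 in eYFP+ cells (53.6% of all genes), with a median of 0.42 against 0.05 for all genes.

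Of 7 partners and substrates, 4 were higher in macrophages than in monocytes and none was lower, where 20.3% of all genes were higher and 15% lower, and their median log2 fold change was 0.85 against 0.08 for all genes. The lowest adjusted p was that of Glb1, which Ctsa protects (log2 1.79 ± 0.23, adjusted p = 4.34e-14). The invariant chain Cd74, which Ctss cuts, was lower in Ly6Chi than in Ly6Clo monocytes, at 1046 to 2744 TPM against 7491 to 14336 TPM (log2 -2.46 ± 0.50, adjusted p = 5.39e-05). The summed dendritic cell markers were also lower in Ly6Chi cells, at 109.8 to 123 TPM and 613 to 2843 TPM, and Ly6Clo replicate 2 was the highest library for both. Cd209a, at 549 to 2820 TPM in Ly6Clo libraries, made up nearly all of the sum in replicate 2, where 2 of the 7 markers were listed at 0. The order of the Ly6Clo libraries is thus that of Cd209a and does not describe the rest of the list. The part of these markers in the Cd74 difference was not tested. The membrane protein Lamp1 was higher in Ly6Chi cells (1.36, adjusted p = 0.0303). Cd74 averaged 3936 TPM in eYFP+ and 5309 TPM in eYFP- macrophages, between the 1840 TPM of Ly6Chi and the 10042 TPM of Ly6Clo monocytes. The comparison of cell types averages over both monocyte populations and did not call Cd74 (log2 -0.03, adjusted p = 0.962). No partner was called between the macrophage populations.

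Among 5 transcription-related genes, Tfec and Mitf were higher and Tfeb lower in macrophages than in monocytes, where 20.3% of all genes were higher and 15% lower (median log2 fold change of the 5 0.41, of all genes 0.08). Tfec stood at 54.3 to 111 TPM in macrophages, 15.7 to 16.3 TPM in Ly6Chi and 2.29 to 3.23 TPM in Ly6Clo monocytes, a log2 fold change of 3.56 ± 0.18 between the cell types (adjusted p = 6.67e-85) and of 2.52 between the monocytes (adjusted p = 3.13e-19). Tfeb fell by 1.15 on the log2 scale (adjusted p = 0.00533), with overlapping ranges of 9.44 to 25.8 TPM and 12.3 to 60.6 TPM, the lowest values being those of eYFP+ replicate 1 and Ly6Clo replicate 2. None of the 5 was called between the macrophage populations.

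The members' own patterns over the 12 libraries fell into groups, described here by Pearson r of the authors' variance-stabilised values, in which the libraries form a macrophage and a monocyte cluster. Ctsd and Ctsf were most alike (r = 0.99), followed by Ctsd and Ctsl (0.962) and Ctsf and Ctsl (0.958). Ctss ran against these 3, with r of -0.642, -0.601 and -0.646. Among 10009 other genes, those most like Ctsd were Pld3, Stab2 and Slc16a9 (r from 0.995 to 0.996), most like Ctsb were Trf, Tspan4 and Pon3 (0.992 to 0.994), and most like Ctsl were Eci2, Teddm2 and Mgll (0.994 to 0.995). Ctsf was followed by B3gnt7, Cmbl and Iigp1 (0.993 to 0.995), Ctsc by Dmac1, Ptafr and Gpr160 (0.981 to 0.986) and Ctsz by Dnajc15, Glmp and S100a1 (0.974 to 0.983). For the members that did not part the cell types the nearest genes were less close: Sat1, Nudt16l1 and Atraid for Ctsa (0.95 to 0.959), Plin2, Xpa and Cox5b for Ctss (0.948 to 0.965) and Npc2, Utp14a and Lamtor4 for Ctsh (0.905 to 0.939). Glmp and Npc2 encode lysosomal proteins.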

How the data were processed

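Bulk RNA of 12 libraries in 4 groups of 3 was analysed. The authors state that reads were trimmed, error-corrected and cleared of rRNA, then aligned with segemehl to GRCm39, and that pairs falling unambiguously on Ensembl exons were counted with featureCounts. The deposited counts are these whole numbers per gene, the deposited TPM values are scaled for gene length and library, and the deposited log2-like values are DESeq2's variance-stabilised counts. Whether strand was used is not given in the sources used here, so overlapping and antisense genes may share or lose reads.

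Members and all gene lists were chosen with earlier results of these data known. The counts were fitted with DESeq2 1.42.0 in R 4.3.3, all 12 libraries and the group as the only term, with Wald tests and Benjamini-Hochberg adjustment at 0.05 after independent filtering over all genes. Alternatives used edgeR 4.0.16 (quasi-likelihood), limma 3.58.1 on log2(TPM + 1) or log2(TPM + 0.1) for genes of at least 1 TPM, scaling by TMM or by total counts, only genes with 10 counts in 3 libraries, GC correction (a spline with 5 degrees of freedom), a replicate block, each library left out and, chosen after seeing the data, GC correction without Ly6Clo replicate 2. For the counts of members called, another alternative also required a fold change of at least 2. The code was tested on simulated data. All 10 members are named, as are pathway genes called between the macrophage groups, otherwise the gene with the lowest adjusted p per list, direction and comparison, every other cathepsin of at least 1 TPM in a group, and the 3 genes most correlated with each member among those of at least 100 normalized counts. Lgmn's cell-type values, Mitf, Cd74's cell-type values and the marker genes were named after their values were seen. Ahsp, Csta2 and Csta3 had no single identifier and were left out. Symbols, GC content and transcript length came from GENCODE M21, whose names matched 91.4% of identifiers. The promoter sequences come from RefSeq on GRCm38.p6, another build than the counts. Directions by replicate number were looked at after the other values were seen.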

Additional observations from a re-analysis of the deposited data

How the results depend on the processing

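Between macrophages and monocytes 6 to 9 cathepsins were called over 25 alternatives and the directions of called members held. The 6 came from also requiring a fold change of at least 2, which Ctsz did not reach. Ctsz was lost under GC correction with and without the replicate block (adjusted p of 0.704 and 0.497), Ctss was called lower in 5 alternatives (total counts, limma on log2(TPM + 1), both GC corrections, and without eYFP+ replicate 1) and Ctsa was called higher in both limma fits. A further one chosen after seeing the data, GC correction without Ly6Clo replicate 2, called 8 between the cell types (Ctsz, and Ctss lower, among them), and 1 in each of the other comparisons, Ctse (adjusted p = 0.0242) and Ctsc.

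Between eYFP+ and eYFP- macrophages 1 cathepsin was called, Ctse, and 0 under edgeR's quasi-likelihood test (1 at an unadjusted p under 0.05, as in DESeq2), the edgeR replicate block, limma on log2(TPM + 0.1), no independent filtering or GC correction, and 0 to 1 when each library was left out in turn. The cause was not tested. Between Ly6Chi and Ly6Clo monocytes 1 was called, but 2 with TMM factors (Ctsc and Ctsh) or total counts (Ctsb and Ctsc), 3 with limma at either pseudocount or the count minimum (Ctsb, Ctsc and Ctsh), and 1 to 2 when each library was left out, the 2 being without Ly6Clo replicate 1 or eYFP+ replicate 1. The cause was not tested.

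The replicate block in DESeq2 changed no call of a member (Ctse between the macrophage groups had a log2 fold change of -2.20 and an adjusted p of 0.0028). The sources do not say that a number marks a shared mouse or day. Deviations of same-numbered libraries correlated at 0.456, 0.332 and 0.152 in macrophages and at 0.307, 0.031 and -0.011 in monocytes over the 2000 genes of highest mean, and at 0.301, 0.165 and 0.062 and at 0.077, 0.003 and -0.001 over the 2000 of highest variance. Not every library correlated best with its own number, which does not settle whether a number joins libraries. The fit without the block is the one reported because the sources do not state such a link. Over all genes, 439 were called between the macrophage groups (7.52% of them higher), 1155 with the DESeq2 block (40.8% higher), 64 with edgeR, 24 with edgeR's block, 1032 with GC correction and the block, 686 with only the libraries compared, 169 with limma on log2(TPM + 0.1), 865 without Ly6Clo replicate 2 and 227 without eYFP- replicate 3. Between the monocyte groups 1860 were called (42.4% higher), 829 with edgeR, 537 with edgeR's block, 1053 and 1145 with limma, 1191 with only the libraries compared, and 1205 to 1250 without any 1 of the Ly6Chi libraries. Total-count scaling moved the median of all genes between the macrophage groups by -0.10 and GC correction by 0.10.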
